A study of Homo sapiens with 18 samples.

Results

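The HLA class I antigen presentation genes were followed through 6 ovarian cancer lines. The group comprised 9 named genes, the heavy chains HLA-B, HLA-C, HLA-E and HLA-F, the light chain B2M, the peptide transporter subunits TAP1 and TAP2 and the immunoproteasome subunits PSMB8 and PSMB9. They were chosen by symbol, and 8 of the 9 were among the 12853 genes of the expression table, HLA-F being not analysed here. RNA-seq had been made in triplicate for each line, giving 18 libraries of rRNA-depleted RNA from cultured cells, with no drug treatment named in the labels. The 6 lines formed 3 pairs of a platinum-sensitive and a platinum-resistant line. PEO1 (sensitive) and PEO4 (resistant) came from 1 patient with high-grade serous ovarian cancer, both after platinum chemotherapy but on either side of the onset of clinical resistance. PEA1 (sensitive) and PEA2 (resistant) came from the ascites of 1 patient, PEA1 before chemotherapy and PEA2 at resistant relapse. CP70 was derived from A2780 in culture, so this pair models selection in vitro. Each line is 1 culture model, and nothing says that its 3 libraries came from separate cultures, so that the p-values measure the spread between these libraries, which may be technical. Within a patient pair, resistance, time and any other difference between the 2 isolates cannot be told apart.

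MHC class I molecules show peptides from inside the cell to CD8 T cells. Proteasomes cut proteins into peptides, the TAP1-TAP2 transporter moves these into the endoplasmic reticulum, and there they are loaded on a heavy chain paired with beta-2-microglobulin. Interferon-gamma raises much of this set, in part through IRF1, and the transactivator NLRC5 acts on class I promoters. Loss of class I expression is a known way in which tumour cells escape T cells.

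Values are log2 CPM, the reads of a gene scaled to a fixed library total, with 0.5 reads added, and CPM values are given without that addition. The libraries held 1344098 to 7067336 reads on the listed genes, so that 3 reads, used as the detection floor, corresponded to 0.452 to 2.18 CPM. Marker genes were examined in the same libraries. In A2780, 5 of 6 epithelial markers and 5 of 5 serous ovarian markers were at 3 reads or fewer, and CP70 had 3 and 4 at that level. Summed epithelial markers were 2.24 to 3.13 CPM in A2780 and 89.4 to 95.8 CPM in CP70. PEA1 lacked KRT7 and KRT19, and its summed epithelial markers were 154 to 202 CPM against 3742 to 3915 CPM in PEA2. The summed levels were 4683 to 4924 CPM in PEO1 and 3251 to 3676 CPM in PEO4. PEA2 held PTPRC, a pan-leukocyte marker, at 20.1 to 25.1 CPM and CDH5, an endothelial cadherin, at 25.3 to 36.1 CPM, while the other lines were at or below 0.526 CPM for both. These were the 1 of 11 leukocyte and the 1 of 3 endothelial markers in the table. Fibroblast markers summed to 366 to 447 CPM in PEA1, where COL1A2, DCN and LUM were at 3 reads or fewer, and to at most 57.2 CPM in the other lines. In A2780 they summed to 6.19 to 12.9 CPM and in CP70 to 50.5 to 57.2 CPM. These differences between paired lines lie along with the results for the pairs, the A2780 pair included, and their part in them was not tested.

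Of the 8 genes, 7 lie on the short arm of chromosome 6, within the MHC, and B2M lies on chromosome 15. On GRCh37, HLA-E spans chr6:30457286-30461971 on the plus strand, HLA-C chr6:31236526-31239907 and HLA-B chr6:31321649-31334844, both on the minus strand. TAP2 (chr6:32789610-32806516, minus), PSMB8 (chr6:32808494-32812456, minus), TAP1 (chr6:32812986-32821593, minus) and PSMB9 (chr6:32811913-32827628, plus) follow each other within 38019 bases. B2M occupies chr15:45003556-45011049 on the plus strand. All are protein-coding genes, and the counts sum over their exons, UTRs included. In the annotation PSMB9 overlaps PSMB8 and TAP1 on the opposite strand. The kit marked strand, but the strand setting of the counting is not given in the sources used here, so reads in the overlaps may not be told apart. Of all windows of 50 bases in a reference transcript, 2.49% for HLA-B, 6.63% for HLA-C and 2.24% for HLA-E also occurred in another heavy chain transcript compared. How many reads were assigned to the wrong heavy chain, or lost from alleles unlike the reference, was not tested.

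Promoters are shown first for those of the 8 genes with the highest log2 fold changes within the A2780 pair and within the PEO pair. These were PSMB9, HLA-B and TAP1 in the A2780 pair and PSMB9, PSMB8 and TAP1 in the PEO pair. HLA-C came next in both pairs and is not shown, and B2M is added for contrast. The windows run from 250 bases before to 50 bases after the gene start (RefSeq, GRCh38.p14, where 7 of the 8 genes matched, HLA-E being the exception). Capitals mark matches to 3 motifs on either strand, the ISRE core GAAANNGAAA of interferon-stimulated response elements, the GAS core TTCNNNGAA of interferon-gamma-activated sites, and the kappa-B consensus. The lines give HLA-B (chr6:31357130-31357429, minus), B2M (chr15:44711267-44711566, plus), TAP1 at the first of 2 starts listed (chr6:32853655-32853954, minus), PSMB9 (chr6:32853942-32854241, plus) and, of 2 starts listed for PSMB8, the one with matches (chr6:32843998-32844297, minus).
HLA-B: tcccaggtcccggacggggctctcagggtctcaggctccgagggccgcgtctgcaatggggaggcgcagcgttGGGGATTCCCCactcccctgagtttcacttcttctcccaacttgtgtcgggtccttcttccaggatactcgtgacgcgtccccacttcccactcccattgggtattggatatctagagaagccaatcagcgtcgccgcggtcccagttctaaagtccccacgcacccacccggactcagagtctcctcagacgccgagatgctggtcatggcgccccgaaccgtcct
B2M: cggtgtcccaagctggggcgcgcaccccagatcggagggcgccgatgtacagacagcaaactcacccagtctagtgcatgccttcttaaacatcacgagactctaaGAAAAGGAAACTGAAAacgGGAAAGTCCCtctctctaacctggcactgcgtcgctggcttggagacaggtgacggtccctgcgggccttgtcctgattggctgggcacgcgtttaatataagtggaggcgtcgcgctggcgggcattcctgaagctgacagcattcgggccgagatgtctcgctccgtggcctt
TAP1: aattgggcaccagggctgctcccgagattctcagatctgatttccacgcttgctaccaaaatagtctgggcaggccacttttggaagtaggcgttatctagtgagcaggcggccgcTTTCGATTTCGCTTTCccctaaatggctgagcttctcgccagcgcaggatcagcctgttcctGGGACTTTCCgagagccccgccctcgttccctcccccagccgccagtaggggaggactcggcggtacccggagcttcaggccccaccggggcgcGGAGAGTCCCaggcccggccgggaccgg
PSMB9: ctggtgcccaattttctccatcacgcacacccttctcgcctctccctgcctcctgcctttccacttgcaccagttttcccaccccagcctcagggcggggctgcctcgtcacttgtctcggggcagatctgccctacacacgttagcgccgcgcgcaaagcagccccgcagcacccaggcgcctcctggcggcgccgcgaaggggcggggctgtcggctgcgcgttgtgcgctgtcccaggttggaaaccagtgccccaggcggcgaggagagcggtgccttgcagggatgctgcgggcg
PSMB8: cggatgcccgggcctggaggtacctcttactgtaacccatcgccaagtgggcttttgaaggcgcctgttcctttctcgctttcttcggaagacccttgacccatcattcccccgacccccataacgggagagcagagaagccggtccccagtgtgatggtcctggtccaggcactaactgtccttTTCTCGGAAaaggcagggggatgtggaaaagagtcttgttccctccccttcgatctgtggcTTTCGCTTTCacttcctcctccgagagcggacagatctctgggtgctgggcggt
HLA-B held overlapping kappa-B matches from base -177, counted from the gene start, and neither an ISRE nor a GAS match. B2M held overlapping ISRE matches from bases -144 and -138 and a kappa-B match from -125. TAP1 held ISRE matches from -134 and -128 and kappa-B matches from -72 and 22. At the other start listed for TAP1, not shown, a GAS match lay at -189. By these RefSeq starts TAP1 and PSMB9 point away from each other, 488 bases apart, or 1431 from the other TAP1 start. By the GENCODE spans given above the 2 genes instead overlap, with starts 9680 bases apart. The PSMB9 window itself held none of the 3 motifs. The PSMB8 window held an ISRE match from -4 and a GAS match from -65. Over the 7 genes, 4 had an ISRE core, 2 a GAS core, 4 the kappa-B consensus and 5 a CCAAT box, the motif of NF-Y. Counted over the 9 windows of these genes the numbers were also 4, 2, 4 and 5. Over 35116 single promoters of the same length these shares were 3.57%, 7.66%, 11.3% and 34.6%. No match to one motif overlapped a match to another. A match describes letters only.

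In the A2780 pair 6 of the 8 genes were higher in CP70 and none was lower at an FDR below 0.05 (limma, Benjamini-Hochberg over 12853 genes). The HLA-B, HLA-C, TAP1 and PSMB9 transcripts rose most. The median log2 fold change (log2FC) of the 8 was 1.58 against -0.02 for all genes, with PSMB8 included at a value set by the floor. It stayed 1.58 with PSMB9 at its lower bound and was 2.37 without PSMB8. Of all genes tested, 39.9% passed in this pair, 22.2% being higher and 17.7% lower in CP70. Of the 8, 4 also passed the fold threshold of the study (|log2FC| above 2), against 9.06% of all genes. In the PEO pair all 8 were higher in PEO4, with a median log2FC of 1.28 against -0.02. There 41.5% of all genes passed, 19.6% higher and 21.9% lower, and 2 of the 8, PSMB8 and PSMB9, passed the fold threshold against 6.22% of all genes. In the PEA pair 1 gene was higher (HLA-E), 2 were lower (HLA-B and B2M) and 5 did not pass, with a median of -0.15 against 0.01. Here 61.9% of all genes passed, 32.5% higher and 29.4% lower, and none of the 8 reached the fold threshold, which 14.1% of all genes did. HLA-E was the 1 gene of the 8 that was higher in the resistant line of all 3 pairs, as were 1.59% of all genes.

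**Figure D1:**
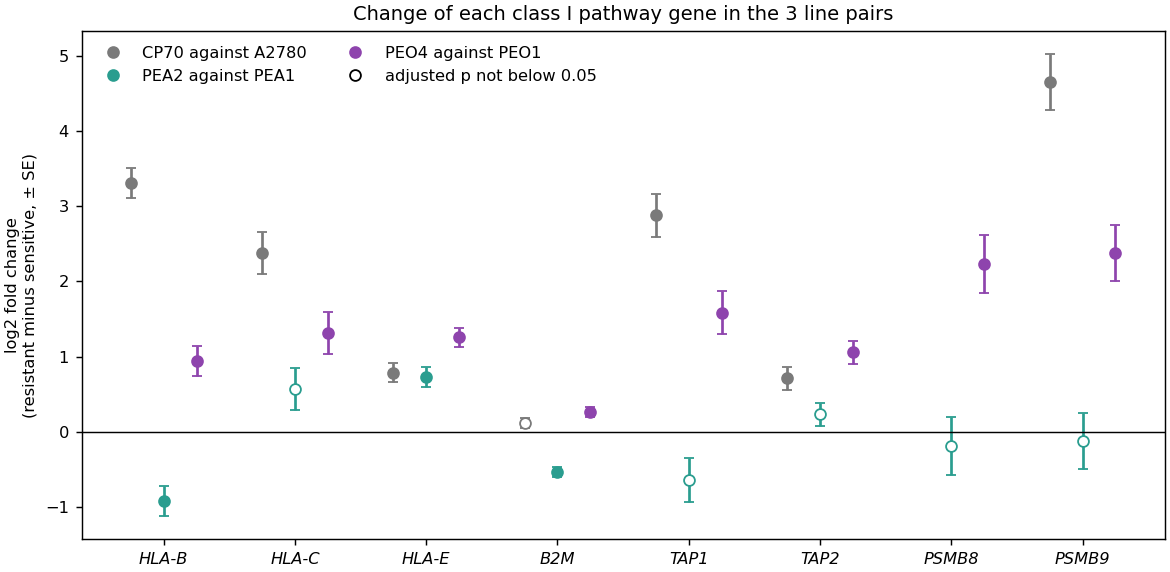
The log2FC of each gene (vertical axis, resistant minus sensitive line, bars are standard errors) in the CP70 (grey), PEA2 (green) and PEO4 (purple) comparisons, with open points where the adjusted p was not below 0.05. PSMB8 is not drawn for CP70, where both lines held 0 to 1 reads. The purple points all lie above 0, and the green points lie between -0.92 for HLA-B and 0.73 for HLA-E.

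HLA-B encodes a classical heavy chain, which presents peptides to CD8 T cells. Its level was 2.23 to 3.87 CPM in the A2780 libraries (3.08, 3.87 and 2.23, from 5 to 15 reads) and 35.5, 27.7 and 31.0 CPM in CP70. All CP70 libraries lay above all A2780 libraries, with a log2FC of 3.31 ± 0.20 (SE, n = 3 per line, adjusted p = 3.54e-11, limma), or 9.92-fold. With quantile normalization the log2FC was 2.51. PEO1 held 108, 105 and 94.8 CPM and PEO4 191, 177 and 224 CPM, again without overlap (log2FC 0.94 ± 0.20, adjusted p = 0.00078, limma). The direction was opposite in the PEA pair, with 363, 330 and 327 CPM in PEA1 and 245, 119 and 200 CPM in PEA2 (log2FC -0.92 ± 0.20, adjusted p = 0.00055, limma). The second PEA2 library was the lowest, and the SD of log2 values was 0.54 in PEA2 against 0.08 in PEA1, so the size of this fall depends on that library. Ordered by mean, A2780 was lowest, then CP70, PEO1, PEA2, PEO4 and PEA1, and PEA2 and PEO4 were the neighbours whose libraries overlapped. The line means spanned 6.75 log2 units.

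HLA-C, a classical heavy chain that is also a ligand of killer-cell receptors, was 29.7, 18.3 and 20.6 CPM in A2780 and 140, 102 and 112 CPM in CP70. No library overlapped (log2FC 2.37 ± 0.28, adjusted p = 7.29e-07, limma). In the PEO pair the levels were 217, 257 and 306 CPM in PEO1 and 648, 578 and 696 CPM in PEO4, the highest of the 6 lines (log2FC 1.31 ± 0.28, adjusted p = 0.00076, limma). PEA1 held 80.6, 82.6 and 71.9 CPM, and PEA2 172, 57.3 and 161 CPM. The second PEA2 library thus lay below all PEA1 libraries and the other PEA2 libraries above them, and the difference did not pass (log2FC 0.57 ± 0.28, adjusted p = 0.082, limma). Without that library the log2FC was 1.09 (adjusted p = 3.09e-05, limma), and the count of the 8 genes passing in the PEA pair went from 3 to 5, with TAP2 as the other addition. Of neighbours in the order A2780, PEA1, CP70, PEA2, PEO1 and PEO4, CP70 and PEA2 overlapped.

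HLA-E encodes a non-classical heavy chain that binds leader peptides of other class I chains and is read by NKG2 receptors. Its levels were 33.0, 23.0 and 27.3 CPM in A2780 and 51.1, 48.8 and 43.1 CPM in CP70 (log2FC 0.79 ± 0.13, adjusted p = 5.96e-05, limma). They were 87.2, 74.8 and 85.1 CPM in PEA1 against 147, 117 and 147 CPM in PEA2 (log2FC 0.73 ± 0.13, adjusted p = 8.20e-05, limma). PEO1 held 33.6, 36.1 and 40.1 CPM and PEO4 86.2, 87.4 and 88.4 CPM (log2FC 1.26 ± 0.13, adjusted p = 2.18e-07, limma). In each pair every resistant library lay above every sensitive one. The lines ran from A2780 through PEO1, CP70, PEA1 and PEO4 to PEA2 over 2.31 log2 units, and PEA1 and PEO4 overlapped.

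B2M, the invariant light chain, did not pass in the A2780 pair, fell in PEA2 and rose in PEO4. A2780 held 151, 147 and 154 CPM and CP70 162, 164 and 166 CPM, a difference of 0.12 ± 0.07 on the log2 scale (adjusted p = 0.18, limma), and the libraries did not overlap. B2M fell by 0.53 ± 0.07 from 815, 838 and 824 CPM in PEA1 to 548, 559.5 and 608 CPM in PEA2 (adjusted p = 1.45e-06, limma). Over the 425 genes of chromosome 15 the median log2FC in this pair was -0.59, and its part in the result was not tested. B2M rose from 607, 572 and 580 CPM in PEO1 to 703, 715 and 690.1 CPM in PEO4 (log2FC 0.26 ± 0.07, adjusted p = 0.0044, limma). The serous lines lay well above A2780 and CP70, with PEA2 and PEO1 overlapping and PEA1 highest.

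**Figure D2:**
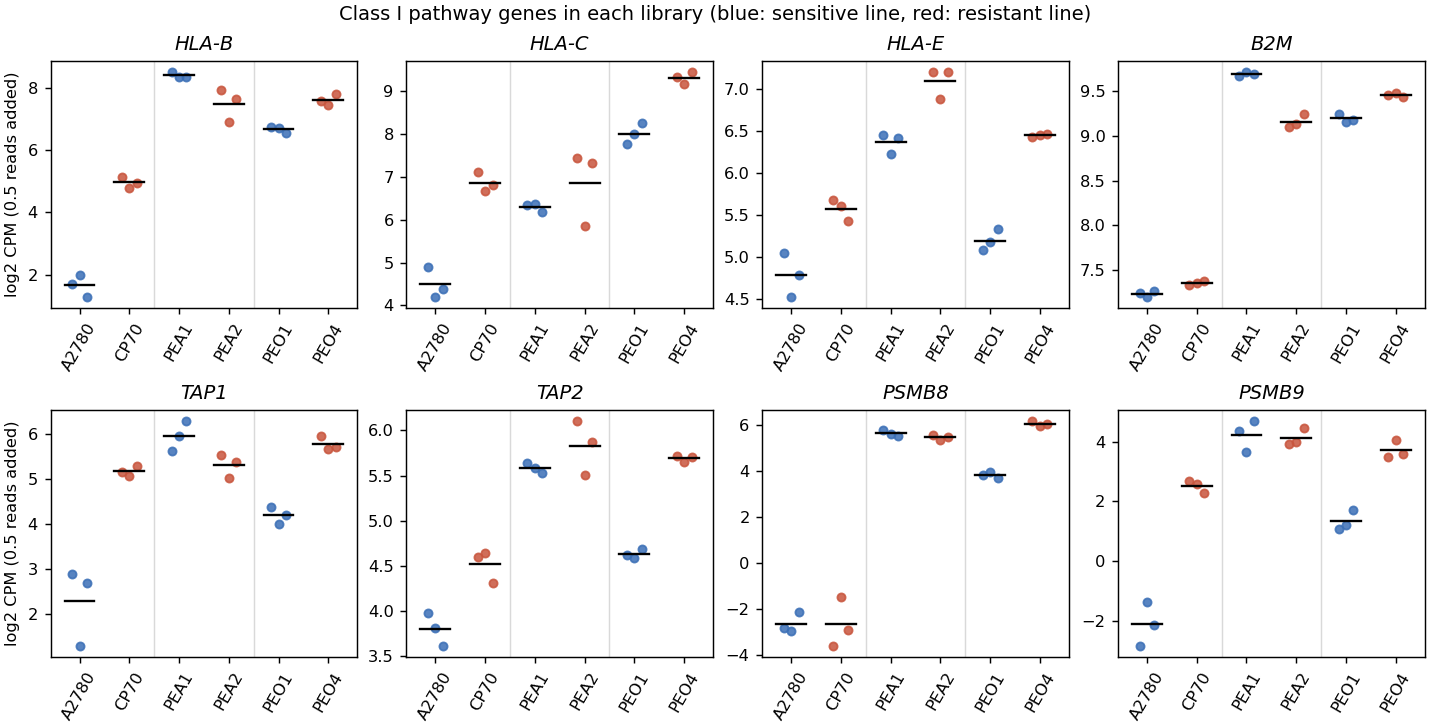
Log2 CPM (vertical axis, 0.5 reads added) of the 8 genes in each of the 18 libraries, blue for sensitive and red for resistant lines, with a black bar at the mean of 3 libraries. A2780 has the lowest mean of the 6 lines for all genes but PSMB8, where it and CP70 are both at the floor. The second PEA2 library is the lowest of PEA2 for HLA-B, HLA-C, HLA-E, TAP1, TAP2 and PSMB8.

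TAP1 and TAP2 form the transporter that carries peptides into the endoplasmic reticulum. TAP1 was 7.27, 2.32 and 6.26 CPM (9 to 26 reads) in A2780 and 35.4, 33.7 and 38.9 CPM in CP70, a 7.35-fold difference (log2FC 2.88 ± 0.29, adjusted p = 8.32e-08, limma). In PEO1 it was 20.6, 15.7 and 18.4 CPM and in PEO4 61.9, 50.4 and 52.3 CPM (log2FC 1.59 ± 0.29, adjusted p = 0.00017, limma). In the PEA pair the values were 48.7, 62.0 and 77.7 CPM in PEA1 and 46.4, 32.2 and 41.6 CPM in PEA2. These did not overlap, but the difference of -0.64 ± 0.29 did not pass (adjusted p = 0.063, limma) and did so under several other settings.

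TAP2 moved less. It was 15.7, 13.9 and 12.1 CPM in A2780 and 24.2, 24.9 and 19.7 CPM in CP70 (log2FC 0.71 ± 0.15, adjusted p = 0.00080, limma), and 24.5, 24.0 and 25.8 CPM in PEO1 and 52.6, 50.1 and 51.9 CPM in PEO4 (log2FC 1.06 ± 0.15, adjusted p = 1.31e-05, limma). PEA1 (49.4, 47.7 and 46.0 CPM) and PEA2 (68.3, 45.2 and 58.1 CPM) overlapped, and the log2FC of 0.24 ± 0.15 did not pass (adjusted p = 0.19, limma). Without the second PEA2 library it was 0.40 and passed (adjusted p = 0.033, limma). For TAP1 the overlapping neighbours among the lines were CP70 with PEA2 and PEO4 with PEA1, and for TAP2 CP70 with PEO1 and PEO4 with PEA2.

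PSMB8 and PSMB9 replace PSMB5 and PSMB6 in the immunoproteasome, which favours peptides that fit class I molecules. PSMB8 was at 0 reads in all 3 A2780 libraries and at 0, 1 and 0 reads in CP70, so that no fold change is given for that pair. PSMB9 was at 0, 1 and 0 reads in A2780 but at 39, 25 and 18 reads (6.39, 5.93 and 4.73 CPM) in CP70, at least 5.77-fold higher when each A2780 library is set to the floor of 3 reads. The fitted difference passed (adjusted p = 2.67e-09, limma), and its size depends on the reads added, the log2FC being 4.65 as deposited and 3.06 with 2 reads added. Thus of these 2 neighbouring genes PSMB9 was detected in CP70 and PSMB8 was not above the floor. Both rose in PEO4. PSMB8 was 13.7, 15.02 and 12.7 CPM in PEO1 and 70.2, 61.1 and 64.9 CPM in PEO4 (log2FC 2.24 ± 0.39, adjusted p = 9.70e-05, limma). PSMB9 was 1.96, 2.15 and 3.17 CPM (6 to 21 reads) in PEO1 and 11.1, 16.4 and 11.8 CPM in PEO4 (log2FC 2.37 ± 0.37, adjusted p = 3.19e-05, limma), a difference that became 3.66 with quantile normalization. Neither passed in the PEA pair, where PSMB8 was 54.5, 48.4 and 45.4 CPM in PEA1 and 46.9, 39.7 and 43.9 CPM in PEA2 (log2FC -0.19 ± 0.39, adjusted p = 0.69, limma). PSMB9 there ranged from 12.1 to 25.3 CPM in PEA1 and from 14.9 to 21.5 CPM in PEA2 (log2FC -0.12 ± 0.37, adjusted p = 0.80, limma).

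The constitutive subunits that PSMB8 and PSMB9 replace were compared with them. PSMB5 passed in no pair (log2FC -0.03, 0.21 and 0.20 in the A2780, PEA and PEO pairs). PSMB6 was higher in CP70 (0.48), lower in PEA2 (-0.87) and at 0.16 in PEO4 without passing. In each library the log2 value of PSMB5 was subtracted from that of PSMB8, and that of PSMB6 from that of PSMB9. The PSMB8 ratio was -2.82 ± 0.25 (SD, n = 3) in PEO1 and -0.79 ± 0.13 in PEO4, a difference of 2.04, and the PSMB9 ratio -4.05 ± 0.28 and -1.84 ± 0.35, a difference of 2.22. Neither ratio overlapped between PEO1 and PEO4 (two-sided exact permutation p = 0.1 each, the smallest that 3 against 3 libraries allow, so that no ratio could pass). In the A2780 pair the PSMB9 ratio went from -8.45 ± 0.84 to -4.28 ± 0.24, again without overlap. The A2780 ratio rests on 0 to 1 reads of PSMB9, so its value and the size of the difference depend on the reads added. The PSMB8 ratio was set by the floor in both lines. In the PEA pair the PSMB8 ratio went from -0.94 ± 0.11 to -1.33 ± 0.27 without overlap and the PSMB9 ratio from -2.68 ± 0.47 to -1.92 ± 0.35 with overlap. PSMB10, the remaining immunosubunit, replaces PSMB7. PSMB10 was higher in PEO4 (log2FC 1.61, adjusted p = 0.014, limma, from 2 to 15 reads in PEO1), and PSMB7 was higher there too (0.99), so that their ratio overlapped between the lines. PSMB10 did not pass in the A2780 pair (0.17) or the PEA pair (-0.76), where PSMB7 was 0.47 and -0.42.

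**Figure D3:**
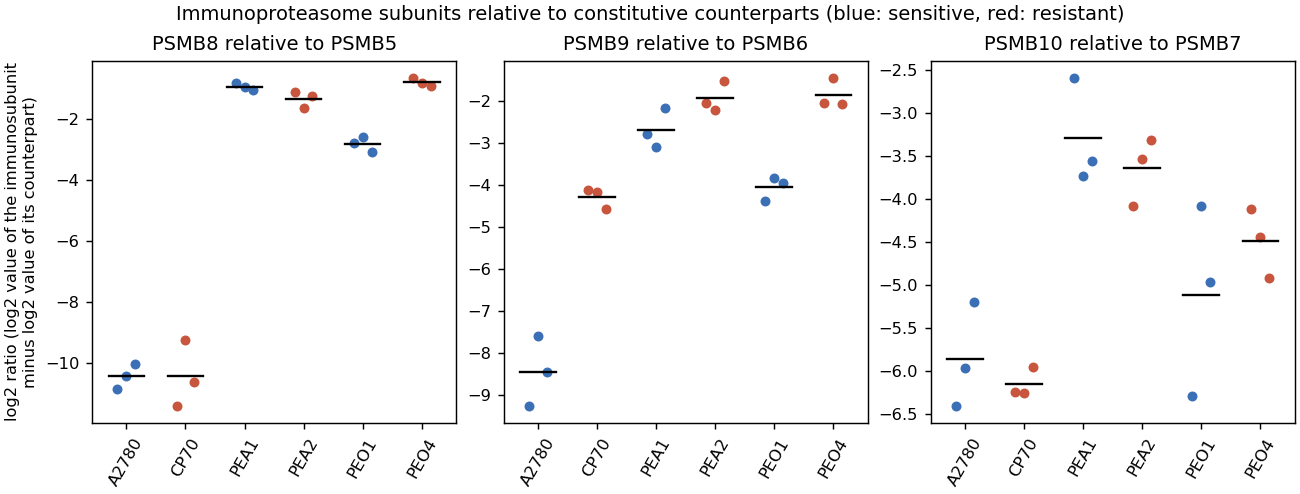
Log2 ratio of each immunoproteasome subunit to the constitutive subunit it replaces (vertical axis) in the 3 libraries of each line, blue for sensitive and red for resistant lines, with black bars at the means. The PEO4 libraries lie above the PEO1 libraries for PSMB8 and PSMB9 and mix with them for PSMB10. The PSMB8 ratios near -10 in A2780 and CP70 rest on 0 to 1 reads, as do the PSMB9 ratios in A2780.

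Per kilobase of the reference transcript, B2M was the most abundant of the 8 in every line, from 160 CPM per kb in A2780 to 876 in PEA1. In PEO4 it was followed by HLA-C (415 CPM per kb), HLA-B (128), PSMB8 (58.2), HLA-E (34.3), TAP1 (20.4), PSMB9 (12.8) and TAP2 (9.13). In PEA1 the leading heavy chain was HLA-B (221 CPM per kb), and HLA-C was at 50.8. These orders depend on the length used, since with the union of all annotated exons HLA-C (255) came above B2M (225) in PEO4.

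The change between sensitive and resistant line differed among the 3 pairs for all 8 genes (moderated F test over the differences between pairs, FDR below 0.05), as it did for 75.3% of all genes. PSMB9, HLA-B and TAP1 had the widest spread of log2FC among pairs, and HLA-E the narrowest. HLA-E (adjusted p = 0.028, limma) no longer passed this test without any 1 of 4 libraries, replicates 1 and 2 of PEO1 and replicates 2 and 3 of PEO4, where its adjusted p was 0.053 to 0.081 (limma).

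The genomic neighbourhood was examined because 7 of the 8 genes lie together. An interval of 5 Mb around the MHC held 84 other genes of the table. In the PEO pair 69 of these were higher in PEO4 and 3 lower, 82.1% and 3.57%, with a median log2FC of 1.11. Thus the genes around the class I genes moved by about as much as HLA-B (0.94), TAP2 (1.06), HLA-E (1.26) and HLA-C (1.31). In the A2780 pair 13 of the 84 were higher and 16 lower in CP70, with a median of -0.06, and in the PEA pair 26 were higher and 14 lower, with a median of 0.13. The raised stretch in PEO4 reached beyond the MHC. In bins of 10 Mb counted from the start of TAP1 the other genes had medians of 0.75 (-40 to -30 Mb, 6 genes), 0.54 (-30 to -20 Mb), 0.93 (-20 to -10), 0.67 (-10 to 0), 0.99 (0 to 10), 0.85 (10 to 20) and 0.67 (20 to 30), and beyond 30 Mb the median of 286 genes was 0.06. Whether gene dosage has a part in these values was not tested.

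**Figure D4:**
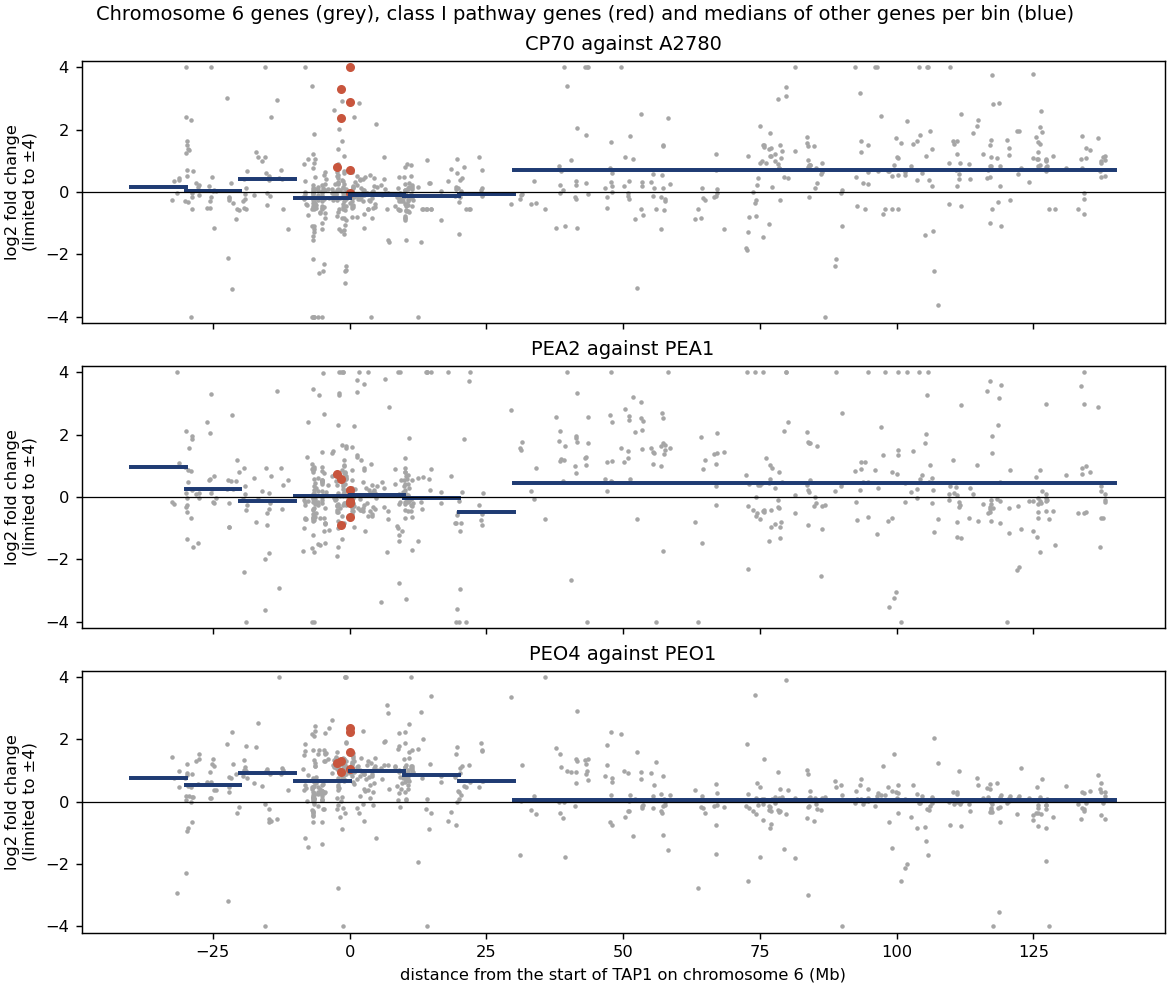
Log2FC (vertical axis, limited to 4 either way) of genes on chromosome 6 against distance from the start of TAP1 in Mb, for the 3 pairs, with grey points for other genes, red for the class I pathway genes and blue bars for the median of other genes in each bin. In PEO4 against PEO1 the blue bars lie at 0.54 to 0.99 from 40 Mb before to 30 Mb after TAP1 and at 0.06 further on. In CP70 against A2780 the red points of HLA-B, HLA-C and TAP1 lie at 2.37 to 3.31 where the bars lie at -0.18 and -0.11.

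Each gene was also set against the mean log2 value of those 84 genes in the same library, as a description. On that scale the PEO4 minus PEO1 difference was -0.08 for HLA-B, 0.29 for HLA-C, 0.23 for HLA-E and 0.03 for TAP2, and the libraries of the lines overlapped for HLA-B, HLA-C and TAP2. It was 0.57 for TAP1, 1.21 for PSMB8 and 1.35 for PSMB9, without overlap. In the A2780 pair the same scale left 3.42 for HLA-B, 2.48 for HLA-C, 2.98 for TAP1 and 0.82 for TAP2. In the PEA pair HLA-B was at -1.38, TAP1 at -1.10, PSMB8 at -0.65 and TAP2 at -0.23, all without overlap, and HLA-E was at 0.26, also without overlap. HLA-C (0.11) and PSMB9 (-0.58) overlapped there, the mean of the 84 genes itself being 0.47 higher in PEA2. That mean was 4.90 in the second PEA2 library against 5.47 and 5.26 in the others.

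Of the transcription factors of class I genes, 13 were in the table. Of these, 5 were higher and 1 lower in CP70, 3 and 3 in PEA2, and 4 and 4 in PEO4. Among all genes, 22.2% were higher and 17.7% lower in CP70, 32.5% and 29.4% in PEA2, and 19.6% and 21.9% in PEO4. Whether the list as a set differed from all genes, or between the pairs, was not tested. NLRC5, the class I transactivator, was at 11, 1 and 7 reads in A2780 and 96, 64 and 58 in CP70 (log2FC 3.27, adjusted p = 3.60e-05, limma). In the PEA pair it fell by 1.61, from 26.9 to 34.5 CPM in PEA1 to between 8.001 and 11.9 CPM in PEA2 (adjusted p = 0.011, limma), and in the PEO pair it was at -0.12 without passing (adjusted p = 0.88, limma). IRF1, an interferon-induced activator of class I genes, was higher in CP70 (2.01) and PEO4 (0.90) and at 0.03 in the PEA pair. RFX5, a subunit of the RFX complex on class I and II promoters, was lower in all 3 resistant lines (-0.43, -0.83 and -0.42). Other genes named by the rule were IRF2, higher in CP70 (1.51) and PEA2 (0.72), CREB1, higher in PEA2 (0.58), and in PEO4 NFYA (1.15), higher, with CREB1 (-0.61) and NFYB (-0.57), lower. NFYA too lies on chromosome 6.

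Of 10 interferon receptor and kinase genes, 2 were higher and 3 lower in CP70, 2 and 2 in PEA2, and 3 and 1 in PEO4. Of all genes, 22.2% were higher and 17.7% lower in CP70, 32.5% and 29.4% in PEA2, and 19.6% and 21.9% in PEO4. JAK1, the kinase shared by both interferon receptors, rose in CP70 (1.21), and IFNGR1, a subunit of the interferon-gamma receptor, rose in CP70 (0.61) and PEA2 (0.69). STAT2, which acts in the response to type I interferon, was lower in CP70 (-1.05) and higher in PEA2 (0.70) and PEO4 (1.52). IFNGR2, the partner of IFNGR1, was lower in CP70 (-0.68). In PEO4 IFNGR2 (1.15) and the type I receptor chain IFNAR1 (0.94) were higher and SOCS3, an inhibitor of cytokine signals, was lower (-1.25). Both receptor genes lie on chromosome 21, where the median log2FC over 123 genes was 0.81 in this pair and 65% of genes were higher. In PEA2 PTPN2, a phosphatase that acts on JAK1, and IFNAR2 were lower (-1.08 and -0.93).

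Peptide loading and trimming genes were listed for all 12 written, of which 4 were higher and 5 lower in CP70, 7 and 1 in PEA2, and 8 and 2 in PEO4. The shares of all genes were 22.2% higher and 17.7% lower in CP70, 32.5% and 29.4% in PEA2, and 19.6% and 21.9% in PEO4. TAPBP, the tapasin that bridges transporter and heavy chain, followed HLA-B in direction, at 0.65 in CP70, -0.46 in PEA2 and 1.5 in PEO4, and it lies within the MHC interval. ERAP1 and ERAP2, which trim peptides in the endoplasmic reticulum, were higher in all 3 resistant lines, ERAP1 by 1.42, 1.61 and 0.64 and ERAP2 by 2.62, 0.86 and 1.07. TAPBPL, a tapasin relative at 0 to 7 reads in A2780, was higher in CP70 (2.48) and LNPEP, an endosomal aminopeptidase, in PEA2 (2.37). TPP2, a cytosolic peptidase, was lower in CP70 (-1.23), as was PDIA3, a disulfide isomerase of the loading complex (-0.68). In PEO4 THOP1, which destroys cytosolic peptides, and PDIA3 were lower (-0.63 and -0.30). In PEA2 TPP2 (0.37), PDIA3 (0.67) and THOP1 (0.80) were instead higher, and TPP2 was also higher in PEO4 (0.28).

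Of 8 further proteasome genes, 6 were higher in CP70 and none lower, 1 higher and 2 lower in PEA2, and 4 higher and 1 lower in PEO4. Beside these, 22.2% of all genes were higher and 17.7% lower in CP70, 32.5% and 29.4% in PEA2, and 19.6% and 21.9% in PEO4. PSME1, a subunit of the interferon-induced PA28 activator, was higher in every resistant line (1.77, 0.65 and 0.68). POMP, the assembly factor, was higher in CP70 (0.57), and PSME3, a nuclear activator, was higher in CP70 (0.32) and lower in PEO4 (-0.40).

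Of 6 further class I-like genes in the table, 3 were higher and 1 lower in CP70 and in PEA2, and 4 higher and none lower in PEO4. The shares of all genes were 22.2% higher and 17.7% lower in CP70, 32.5% and 29.4% in PEA2, and 19.6% and 21.9% in PEO4. MICB, a stress ligand of the NKG2D receptor, was higher in all 3 resistant lines (2.91, 1.65 and 0.80), and its neighbour MICA in CP70 (1.64) and PEA2 (0.86) but at 0.14 in PEO4 without passing. MR1, which presents vitamin metabolites, was lower in CP70 (-0.87) and PEA2 (-2.26) and higher in PEO4 (1.01), and HFE, an iron regulator, was higher in PEO4 (1.67). Of 11 genes written for MHC class II, 1 was in the table, CD74. It encodes the invariant chain that accompanies class II molecules, and none of the class II HLA genes themselves was in the table. CD74 fell by 3.62 in PEO4, from 132 to 403 reads in PEO1 to 5 to 18 reads (adjusted p = 1.78e-07, limma), opposite in sign to all 8 class I genes, and by 0.88 in PEA2.

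Among the 8 genes the correlation of log2 values over the 18 libraries was highest for B2M with PSMB8 (r = 0.979), then HLA-E with TAP2 (0.948) and TAP1 with PSMB9 (0.912), and lowest for HLA-C with HLA-E (0.424). The 18 libraries came from 6 lines, and libraries of a line share that line, so these coefficients are a description. By the same measure, taken over genes whose log2 values averaged more than 2, the nearest genes were TIMP2, MYEOV and LAMB1 for HLA-B (0.981 to 0.988) and SH3PXD2A, FBXL5 and PLXNB1 for HLA-C (0.962 to 0.966). They were PIGT, TAP2 and NFE2L2 for HLA-E (0.948 to 0.951) and CDK6, ITGA3 and DCDC2 for B2M (0.990 to 0.992). For TAP1 they were PHLDA1, TEC and EPDR1 (0.933 to 0.946) and for TAP2 RBMS1P1, PIGT and GRINA (0.958 to 0.965). PSMB8 was nearest to IFI16, ADAMTS9 and PAX8 (0.987 to 0.998) and PSMB9 to PHLDA1, AGO1 and S100A2 (0.967 to 0.980).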

How the data were processed

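RNA-seq libraries of the 6 lines (3 each) had been made with a directional kit. Per the study's methods, the authors assigned aligned reads to hg19 UCSC genes with featureCounts and normalized with limma (Bowtie2 is also named, without a role). The deposited log2 values are log2 CPM with 0.5 reads added, from which whole reads were recovered (100% of values within 0.01). Each library's 3-read floor in CPM covers counting error only. Lines and replicates were taken from the labels, and which lines form a pair from the paper. One limma model (limma 3.58.1, R 4.3.3, variance trend) gave each line a mean over the 18 libraries, with contrasts resistant minus sensitive, an F test among pairs, and Benjamini-Hochberg adjustment over 12853 genes, at FDR below 0.05 with or without |log2FC| above 2. Tested on simulated data for the A2780 pair, it called 199 of 200 changed genes and 72 unchanged genes, 3 of them with a mean log2 value above 2. For the PEA pair it called 99 of 100 and 33 unchanged genes, 12 of them above 2. For the PEO pair it called 100 of 100 and 5 unchanged genes, 1 of them above 2. False calls thus exceeded a share of 0.05 of all calls in the A2780 and PEA settings. Members and lists were chosen with earlier results of these data known. Named were the members, up to 2 highest and 2 lowest passing genes per list and pair, a fixed set of partner genes (2 are not reported here) and the 3 genes most correlated with each member. The MHC interval was 28.5 to 33.5 Mb of chromosome 6 by the positions in the table, set after the files were opened. Spans and transcript lengths are from GENCODE v44 on GRCh37. Same-numbered replicates did not deviate together (correlations -0.18 to 0.22), so no block was used in the reported values. Alternatives are listed in the closing section.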

Additional observations from a re-analysis of the deposited data

Results flagged for a closer look

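The change from sensitive to resistant line differed among the 3 pairs for each of the 8 genes, by limma's moderated F test over the differences between pair contrasts (FDR below 0.05). Such a difference was found for 75.3% of all genes, so it does not set these genes apart. The distance between the highest and the lowest log2FC of the 3 pairs was 4.76 for PSMB9, where CP70 was highest and the PEA pair lowest, with the A2780 libraries at 0 to 1 reads. It was 4.23 for HLA-B and 3.52 for TAP1, both highest in CP70 and lowest in PEA2. For HLA-C it was 1.80, highest in CP70, and the second PEA2 library was apart from the other PEA2 libraries there. It was 2.42 for PSMB8, which was at the floor in the A2780 pair and so differed through PEO4. For B2M (0.79), TAP2 (0.82) and HLA-E (0.53) the log2FC was highest in PEO4 and lowest in PEA2.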

How the results depend on the processing

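Over 24 single log2FC values and 312 alternatives, 299 kept direction and side of the threshold, 8 newly passed, none ceased to pass and 5 changed sign, each of a value that had not passed. The 8 were 6 of TAP1, 1 of HLA-C and 1 of TAP2, all in the PEA pair. TAP1 in the PEA pair passed with the pair fitted alone, quantile normalization, the replicate block, 2 added reads, voom weights and without the first PEA1 library, and did not pass with the filter on low values, without the trend or without any other library of the pair. The log2FC of PSMB8 in the A2780 pair was 0.13 after quantile normalization and -0.62 to 0.44 on leaving out single libraries, and that of PSMB9 in the PEA pair -0.41 to 0.11. With |log2FC| above 1, 6 members passed in the PEO pair in place of 2. The share of all genes passing at that threshold was not determined, so this count cannot be set against it. The 84 other genes of the MHC interval had a median log2FC of 1.11 in this pair. On leaving out single libraries 3 to 5 members passed in the PEA pair, 5 without the second PEA2 library. The PSMB8 to PSMB5 ratio, CP70 minus A2780, was 0.01 and became -0.33 with 2 reads added, and -0.59 to 0.51 without single libraries. The PSMB9 to PSMB6 ratio in that pair became 2.59 with 2 reads added, from 4.17, by the construction of the ratio at 0 to 1 reads. The PSMB10 to PSMB7 ratio ran from -0.57 to 0.0367 in the A2780 pair and from -0.57 to 0.00813 in the PEA pair without single libraries. Cause was not tested where none is named. The replicate block gave 6, 4 and 8 members in the A2780, PEA and PEO pairs and 4980, 7899 and 5197 genes in all, against 5124, 7958 and 5336 without it. Of the calls of the 8 members it changed that of TAP1 in the PEA pair and no other, and of the wider lists 31 genes passed in the PEO pair in place of 32. Depth limits PSMB8 and PSMB9 in A2780 and PSMB9 and PSMB10 in PEO1. In A2780 HLA-B (5 to 15 reads) and TAP1 (9 to 26 reads) also rested on few reads. Simulated false calls were mostly of genes with a mean log2 value not above 2.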

Other observations

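The log2FC of genes on chromosome 6 also varied along its length in the A2780 pair. Of 286 genes more than 30 Mb beyond TAP1, 54.5% were higher in CP70 and 7.69% lower (median log2FC 0.72). Of the 151 other genes within 10 Mb before TAP1, 13.9% were higher and 24.5% lower (median -0.18), and of 28 genes 10 to 20 Mb before it, 42.9% were higher and 10.7% lower (median 0.42). In the PEA pair the far stretch had a median of 0.46, with 46.5% of genes higher in PEA2. B2M lies on chromosome 15, where the median over 425 genes was -0.25 in PEO4 and 10.1% were higher, while B2M itself was 0.26 higher.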
